A study of Helianthus annuus with 15 samples.

Results

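Root and leaf of sunflower (Helianthus annuus) were compared across all genes that reached at least 1 FPKM in 3 or more of 15 libraries. FPKM divides the fragments counted on a gene by its length and by the size of the library, so levels of different genes can be set side by side per length. This rule kept 34586 of the 63411 identifiers in the deposited table. The study sequenced mRNA of 5 tissues, 3 libraries each: stem, flower and axil stand beside root and leaf, and its title concerns TCP transcription factors and shoot branching. Differences are between the means of the 3 root and 3 leaf libraries, while the filter and the spread behind each error use all 15. The labels give the tissue alone, with no cultivar, age, growth condition or treatment, and it is not stated that replicate libraries were taken from different plants. The p-values therefore rest on library-to-library spread, which may be technical.

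Leaves are the main site of photosynthesis, which takes place in chloroplasts and rests on very abundant proteins encoded partly in the nucleus and partly in the chloroplast genome. Roots take up water and mineral nutrients, anchor the plant and grow without light, and their plastids are mostly not green. In a whole organ, fewer cells of a type and less RNA per cell cannot be told apart. The deposited table names 1 gene, NAC83, beside its 5 tissue means, which are those of 1 identifier, and 0 identifiers matched the reference gene table. Genes are therefore described by level, pattern, chromosome and implied length, and few identifiers are printed: 2 per direction by rule, and that of NAC83.

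The FPKM steps gave back 12086725 to 14654326 reads for a root or leaf library. A gene of 1000 nt with 3 reads then stands at 0.205 to 0.248 FPKM. Across the genes tested, log2(FPKM + 1) correlated at 0.942 to 0.960 between root libraries and at 0.914 to 0.964 between leaf libraries. Leaf 2 was the library that stood apart, with 0.916 to Leaf 1 and 0.914 to Leaf 3, against 0.964 between those 2. It also held more reads on identifiers not placed on a chromosome: these took 0.286% of its reads and 0.0515% to 0.0626% in the other root and leaf libraries. Results that rest on Leaf 2 are given with and without it where they were recomputed. Root and leaf libraries correlated with each other at a median of 0.602 (range 0.546 to 0.640 over 9 pairs).

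The labelled tissues could be checked only through identifiers that carry CP in place of a chromosome, read here as the chloroplast genome. Their FPKM summed to 0.868, 0.223 and 0.292 in Root 1, 2 and 3 and to 51.3, 132 and 41.5 in Leaf 1, 2 and 3. Every leaf library lay far above every root library. Of 78 such identifiers 33 had reads, and 5 passed the filter on low values. Of these 5, 3 were lower in root, with implied lengths of 73, 213 and 5425 nt, and the other 2 did not pass the test; 14.4% of all genes tested were lower in root. The gene of 5425 nt had 0, 0 and 2 reads in Root 1, 2 and 3 and 236, 631 and 526 reads in Leaf 1, 2 and 3. Root minus leaf was -2.79 ± 0.43 in log2 (SE), with a limma adjusted p of 0.000123. All 3 calls were also made without Leaf 2. Oligo(dT) capture, used for these libraries, takes up little chloroplast RNA. Identifiers with MT in place of a chromosome, read here as the mitochondrial genome, summed to 137, 71.1 and 108 FPKM in Root 1, 2 and 3. They summed to 123 in Leaf 1, 1079 in Leaf 2 and 116 in Leaf 3. Apart from Leaf 2, root and leaf ranges overlapped, and 1 of the 21 tested was lower in root (14.4% over all genes), a call lost without Leaf 2.

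Of the genes tested, 5542 (16.0%) were higher in root and 4980 (14.4%) were lower in root, together 10522 (30.4%). A gene was called at a limma adjusted p under 0.05 and a difference of at least 1 in log2(FPKM + 1). Genes higher in root were slightly more numerous, but genes higher in leaf had the larger differences. The median log2 difference was 1.79 among genes higher in root and -1.99 among genes lower in root. Differences of at least 4 were measured for 495 genes higher in root and 691 lower in root. At a difference of at least 8 the numbers were 13 and 86. The pseudocount of 1 understates the change of genes at low levels.

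The direction with more genes depended on scaling and on the threshold. The median log2 difference of all genes was 0.145 as deposited, and it moved to 0.311 with libraries scaled to the same sum and to 0.021 after median-of-ratios scaling. Genes higher and lower in root numbered 6949 and 4486 under the first of these and 4856 and 5588 under the second. Quantile normalization gave 5151 and 5246, and limma's voom on recovered reads gave 5508 and 6877. No gene changed its called direction under these 4 settings. At adjusted p alone the numbers were 10556 and 7143, and at a difference of at least 2 they were 2358 and 2467. With root and leaf alone in the fit they were 5225 and 4673, and without Leaf 2 they were 5681 (16.4%) and 4833 (14%). With 1 root library fewer and the filter kept, the numbers were 5414 and 4976 without Root 1. They were 5571 and 4643 without Root 2, and 5498 and 4849 without Root 3. With the filter applied anew they were 4482 and 4971 without Root 1, 4619 and 4637 without Root 2, and 4549 and 4841 without Root 3. That filter still asks for 3 libraries, so a gene at 1 FPKM in root alone cannot pass with 1 root library fewer. When each root or leaf library was left out in turn with the filter kept, 4487 genes higher in root (81.0%) and 4103 lower in root (82.4%) were called in all 6 runs.

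**Figure D1:**
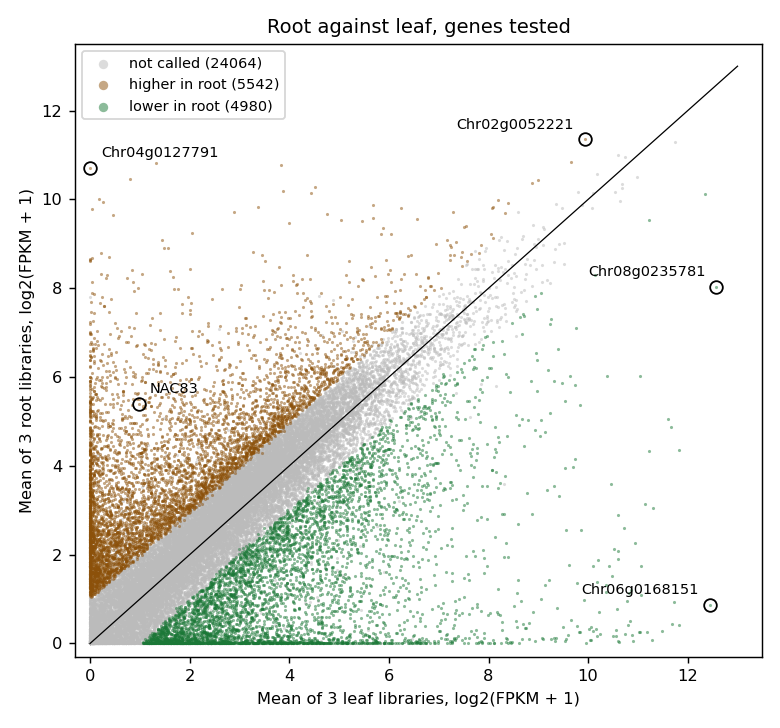
Mean level of each tested gene in leaf (horizontal) and root (vertical), both as log2(FPKM + 1), with genes called higher in root in brown, lower in root in green and not called in grey, and the diagonal marking equal means. Named genes are circled: the green points reach further from the diagonal at high leaf levels than the brown points do at high root levels.

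Not being called took several forms. The adjusted p was 0.05 or more for 16887 genes. A further 5014 genes higher in root and 2163 lower in root passed on adjusted p alone, with a difference under 1. For 14512 genes the 95% interval of the difference lay within 1 on either side of 0, so a change of 2-fold on this scale was outside it. The pseudocount of 1 draws the difference of genes at low levels towards 0. The 3518 genes with means under 1 FPKM in both tissues cannot reach a difference of 1 on this scale. How many of them are among the 14512 was not counted. Among the genes with an adjusted p of 0.05 or more, 61 had a difference of at least 2. Of these, 43 were higher in leaf, and Leaf 2 held the highest leaf value in 35 of them. The other 18 were higher in root, and Root 2 held the highest root value in 10. The groups did not overlap, with all root libraries above all leaf libraries, in 11755 genes, of which 5388 were called. All root libraries lay below all leaf libraries in 7881 genes, of which 4852 were called. Both numbers without overlap are out of the 34586 genes tested. The 16.0% and 14.4% called are shares of calls and no baseline for them. Overlap was judged on the values as deposited, where the median log2 difference was 0.145. The groups overlapped in 154 genes called higher in root and in 128 called lower in root.

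Similar numbers of genes were detected in both tissues. A mean of at least 1 FPKM was reached by 27953 genes in root and 27771 in leaf. Both tissues shared 23609 of them, while 4344 reached that level in root alone and 4162 in leaf alone.

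The tissues differed in how much of the measured RNA a few genes held. In Root 1, 2 and 3, the 1979, 1637 and 1852 highest genes were needed to reach 50% of the summed FPKM. In Leaf 1, 2 and 3, 971, 829 and 807 genes were enough. Every leaf library needed fewer genes than every root library, and the exact two-sided permutation test gave p = 0.1, the smallest p that 3 against 3 libraries allow. The 100 highest genes of a library held 14.6%, 15.7% and 14.7% of the summed FPKM in root and 23.1%, 26.9% and 24.0% in leaf (exact two-sided permutation p = 0.1). These shares do not depend on scaling between libraries. With identifiers on chromosomes alone, the genes needed were 1599 to 1934 in root and 780 to 936 in leaf. Genes called higher in root took 35.8%, 38.3% and 33.0% of the summed FPKM in Root 1, 2 and 3, and genes called lower in root took 43.8%, 51.3% and 43.8% in Leaf 1, 2 and 3. The single highest gene held 0.504% to 0.615% in root and 0.870% to 1.12% in leaf.

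**Figure D2:**
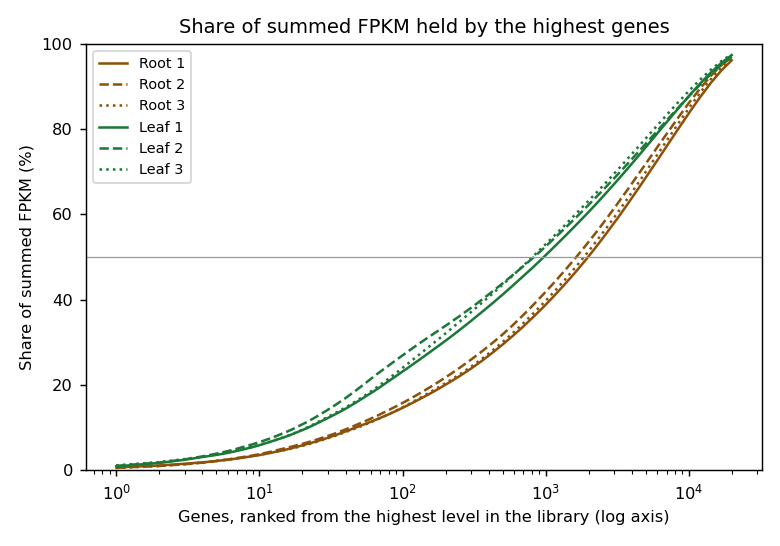
Share of the summed FPKM (vertical, in %) held by the highest genes of each library, ranked within the library (horizontal, log axis), with root in brown and leaf in green. The 3 leaf curves lie above the 3 root curves, and they cross 50% at 807 to 971 genes against 1637 to 1979 in root.

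The highest genes of leaf had low medians in root, while the highest genes of root kept high medians in leaf. Over all genes tested, 14.4% were lower in root and 16.0% higher. Among the 100 genes with the highest leaf mean, 83 were lower in root, 2 were higher in root and 15 were not called. Their median level was 1183 to 1573 FPKM in the leaf libraries and 1.42 to 2.59 FPKM in the root libraries, and 40 of them had a root mean under 1 FPKM. They were also measured in the other tissues, with medians of 231 FPKM in stem, 269 in flower and 193 in axil. Their median implied length was 1018 nt, against 1539 nt over all genes tested. Among the 100 genes with the highest root mean, 61 were higher in root, 2 were lower and 37 were not called. Their median was 608 to 728 FPKM in root and still 187 to 250 FPKM in leaf, and 8 had a leaf mean under 1 FPKM. The lists shared 18 genes, which is 18 of 100 in each. The root count depended on scaling. Under equal sums, quantile normalization, median-of-ratios scaling and voom, 65, 76, 54 and 54 of the root list were higher in root. In the same order, 83, 82, 83 and 83 of the leaf list were lower in root. Called the other way were 2, 1, 2 and 2 of the root list and 2, 6, 0 and 0 of the leaf list. These lists were ranked on root and leaf levels, so their counts describe them and are no separate test.

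By the average of the root and leaf means, 9.51% of 5077 genes under 1 FPKM were called. The share was 32.8% at 1 to 5 FPKM, 30.6% at 5 to 10, 34.7% at 10 to 50, 44.9% at 50 to 100 and 48.9% at 100 to 500 FPKM. The 3518 genes with means under 1 FPKM in both tissues cannot reach a difference of 1 on the log2(FPKM + 1) scale. These classes were cut on the root and leaf means that were compared, so a gene can enter through its higher tissue alone. Their shares describe the classes and are no separate test. Of 103 genes at 500 FPKM or more, 60 were lower in root and 17 were higher in root, 74.8% together against 30.4% of all genes. The number lower in root was also 60 under equal sums, median-of-ratios scaling and voom, and 59 after quantile normalization. The number higher in root was 17 under equal sums, 15 under median-of-ratios scaling and voom, and 25 after quantile normalization. Between 100 and 500 FPKM the directions were nearly even, with 22.7% higher and 26.2% lower in root of 787 genes. Some abundant genes differed little: of 386 genes with at least 100 FPKM in both tissues, 197 had a 95% interval within 1 of 0, 40 were higher in root and 20 were lower in root.

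By rule 4 genes were taken, the gene with the largest difference and the gene with the highest level in each direction. The rule considered only called genes with no overlap between root and leaf libraries. HannXRQ_Chr04g0127791, on chromosome 4 by its identifier, was measured at 1202, 1602 and 2211 FPKM in Root 1, 2 and 3. All 3 leaf libraries were at 0, with no read in any of them. Set against a floor of 3 reads per leaf library, the root mean of 1672 ± 508 FPKM (SD, n = 3) was at least 5901-fold higher. The fitted log2 difference was 10.66 ± 0.36 (SE), at a limma adjusted p of 4.57e-11. Stem was near 0 as well, with 0.103 FPKM in Stem 3 and 0 in Stem 1 and Stem 2, while flower stood at 40.5 ± 26.6 and axil at 14.4 ± 1.4 FPKM (SD, n = 3).

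HannXRQ_Chr02g0052221, on chromosome 2, had the highest root level of the genes called higher in root without overlap. It was measured at 3469, 2106 and 2253 FPKM in Root 1, 2 and 3 and at 719.6, 1395 and 822 FPKM in Leaf 1, 2 and 3. That the groups did not overlap was a condition of the rule. The log2 difference of 1.44 ± 0.53 (SE), at a limma adjusted p of 0.0374, was small beside its error. The call was lost in 16 of 27 recomputations, where the adjusted p ranged from 0.000822 to 0.163 over all 27. It was lost without Root 1 (0.120), Root 2 (0.0537), Root 3 (0.0623), Leaf 1 (0.113) or Leaf 3 (0.0921), these being limma adjusted p-values with the filter kept. With a replicate block the limma adjusted p was 0.0524. With root and leaf alone in the fit it was 0.163. Stem was uneven, at 503, 2629 and 659 FPKM in Stem 1, 2 and 3: Stem 2 lay within the root range and the others below every leaf library. Flower was lower, at 237 ± 19.6 FPKM (SD, n = 3).

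In leaf, HannXRQ_Chr06g0168151 on chromosome 6 had the largest difference. It stood at 4739, 6792 and 5151 FPKM in Leaf 1, 2 and 3 and at 0.219, 1.64 and 0.642 FPKM in Root 1, 2 and 3. The root values rest on 1, 9 and 3 reads and the leaf values on 22291, 33639 and 28535. Root minus leaf was -11.62 ± 0.26 in log2 (SE), at a limma adjusted p of 1.49e-12. The other tissues lay between them, with means of 338 FPKM in stem, 824 in flower and 219 in axil.

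HannXRQ_Chr08g0235781, on chromosome 8, had the highest leaf level of the genes called lower in root without overlap. Its values were 5635, 5115 and 7561 FPKM in Leaf 1, 2 and 3 and 433, 186 and 163 FPKM in Root 1, 2 and 3. Root minus leaf was -4.67 ± 0.50 in log2 (SE), at a limma adjusted p of 4.48e-06. Unlike the gene before it, it was clearly measured in root, with 1000 to 2601 reads per library. Its level was highest in stem, at 15923, 17408 and 16291 FPKM, and it was also abundant in axil, at 2988 to 6899.8 FPKM.

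NAC83 (HannXRQ_Chr17g0568801, chromosome 17) belongs to the NAC family of plant transcription factors and is the gene that the table names. It was measured at 19.2, 54.8 and 48.7 FPKM in root and at 0.770, 0.877 and 1.24 FPKM in leaf, so root was higher by 4.29 ± 0.43 in log2 (SE) at a limma adjusted p of 2.15e-06. Its leaf values rest on 10, 12 and 19 reads. Axil, at 24.8, 40.0 and 67.7 FPKM, overlapped root, while flower had a mean of 10.8 and stem of 2.36 FPKM.

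**Figure D3:**
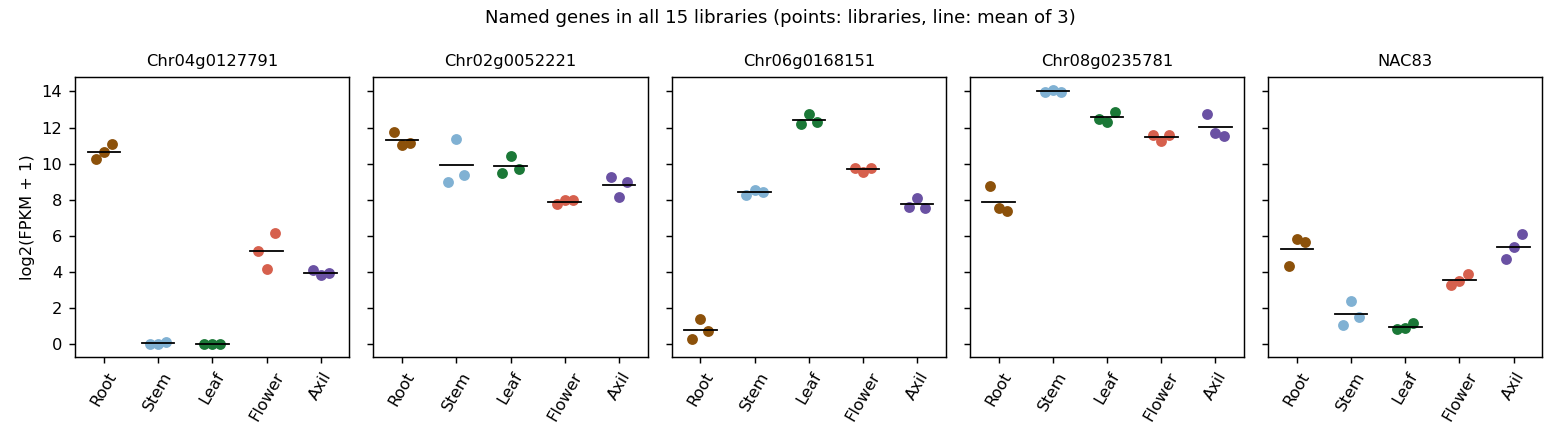
Level of the 5 named genes in each of the 15 libraries, as log2(FPKM + 1), with points for libraries and a line for the mean of the 3 transformed values of a tissue. The gene on chromosome 4 sits at 0 in leaf, the gene on chromosome 6 lies lowest in root, and the gene on chromosome 8 is highest in stem.

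Levels in stem, flower and axil, which entered the filter and the spread but not the difference, were described for both directions. Genes higher in root had medians of 11.1 to 12 FPKM in the root libraries and 1.12 to 1.54 in the leaf libraries. Their medians were 2.26 to 2.64 in stem, 1.47 to 1.71 in flower and 3.04 to 3.27 in axil, all closer to leaf than to root. Genes lower in root had medians of 0.801 to 1.06 FPKM in the root libraries and 10.5 to 14 in the leaf libraries. Their medians in the other tissues were 6.40 to 6.65 in stem, 7.57 to 7.71 in flower and 5.09 to 6.44 in axil, well above root in every library. Root had the highest of the 5 tissue means in 4380 (79.0%) of the genes higher in root. Leaf had the highest in 2913 (58.5%) of the genes lower in root, flower in 1015, stem in 629 and axil in 423. Root had the lowest mean in 4062 (81.6%) of the genes lower in root. Choosing genes by root and leaf favours these extremes, so the shares are descriptions. Over all genes tested, root was highest in 26.2% and lowest in 28.5%, and leaf was highest in 14.1%.

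A stricter set holds genes measured in 1 of the 2 tissues. At a mean of at least 10 FPKM in root and under 1 FPKM in each leaf library there were 551 genes, and 785 genes met the reverse. The larger number in leaf rests on Leaf 2: without it the counts were 658 and 644. Of the 551, 543 were called, 4 were tested and not called, and 4 did not pass the filter. Of the 785, 747 were called, 20 were not and 18 did not pass the filter. These calls are read against the 16.0% and 14.4% called of all genes, and the level rule makes most of them certain. No read was found in any leaf library for 146 of the 551 and in any root library for 245 of the 785. For these genes the floor of 3 reads per library is a chosen setting, which covers counting error only.

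In the other tissues the genes of this stricter set had different levels. Of the 551 root genes, 278 (50.5%) had means under 1 FPKM in all of stem, flower and axil, and 54 (9.80%) reached 1 FPKM in all 3. Of the 785 leaf genes, 72 (9.17%) were under 1 FPKM in all 3 other tissues and 511 (65.1%) reached it in all 3. Over all genes tested, 7.0% were under 1 FPKM in all 3 and 69.7% reached it in all 3. The shares of the leaf genes thus lay near those of all genes, while the shares of the root genes did not. The levels of leaf genes in other tissues were not recomputed without Leaf 2, where the set held 644 genes. Among the root genes, axil was the tissue with the most at 1 FPKM or more, 217 (39.4%), ahead of stem with 146 (26.5%) and flower with 100 (18.1%). Among the leaf genes, flower held 651 (82.9%), stem 607 (77.3%) and axil 580 (73.9%). The median of the root genes was 18.8 to 23.5 FPKM in the root libraries and 0.341 to 0.422 in the axil libraries. The median of the leaf genes was 19.7, 33.0 and 19.9 FPKM in Leaf 1, 2 and 3, 9.33 to 12.3 in flower, 5.71 to 6.43 in stem and 3.94 to 5.66 in axil. At 100 FPKM or more in their own tissue there were 51 of the root genes and 130 of the leaf genes. A single library more than 10 times the median of its tissue carried 14 of the root genes and 68 of the leaf genes.

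**Figure D4:**
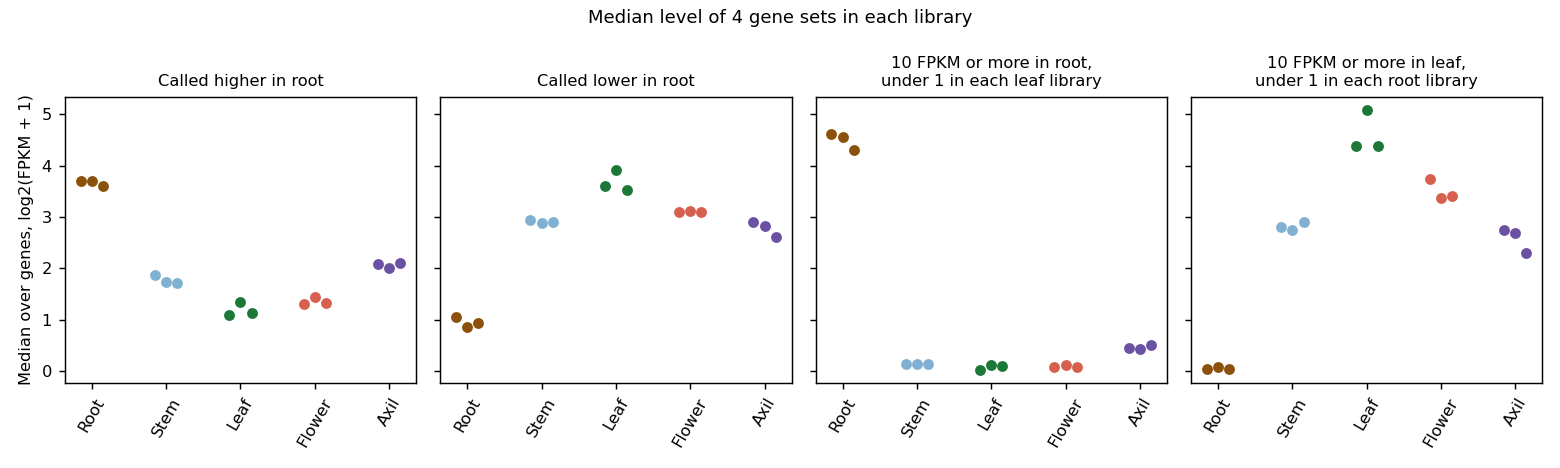
Median level over genes in each of the 15 libraries, as log2(FPKM + 1), for genes called higher in root, called lower in root, and the 551 and 785 genes of the stricter set. The 551 root genes are near the bottom in stem, flower and axil alike, whereas the 785 leaf genes keep intermediate medians there.

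Genes lower in root were shorter at the median. The lengths implied by the FPKM steps had a median of 1556 nt for genes higher in root, 1348 nt for genes lower in root and 1593 nt for genes not called. Of 4819 genes of 3000 nt or more, 15.4% were higher in root and 7.28% lower in root. Of 6513 genes of 500 to 1000 nt, 15.6% were higher and 17.1% lower. Across the 5 length classes the share higher in root ran from 14.2% to 16.6%, and the share lower in root was 15.7% to 17.1% under 2000 nt and 12.1% between 2000 and 3000 nt.

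Called genes were spread over all 17 chromosomes written in the identifiers. The share higher in root ran from 14.9% on chromosomes 6 and 15 to 18.8% on chromosome 4 (363 of 1927 genes tested). The share lower in root ran from 12.6% on chromosome 13 (282 of 2234) to 16.6% on chromosome 16 (344 of 2078). Each lies within a few percentage points of the 16.0% and 14.4% over all genes.

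Neighbouring identifiers shared a direction in part. Here neighbours are tested identifiers next to each other in number on 1 chromosome. Of 5328 genes higher in root with a next neighbour, that neighbour was also higher in root in 1233 (23.1%), where 16.2% of all next neighbours were. It was lower in root in 613 (11.5%). Of 4736 genes lower in root, the next neighbour was lower too in 943 (19.9%), against 14.4% of all next neighbours, and higher in 656 (13.9%). Runs of 4 or more neighbours called in 1 direction numbered 76 with 340 genes higher in root and 49 with 235 genes lower in root. These are counts with no test, and neighbouring genes are not independent of each other. The counts depend on the threshold, with 14 and 8 runs at a pseudocount of 5 and 309 and 94 at adjusted p alone. The sources do not state how reads shared by near-identical neighbours were counted, so the split of levels within a run is uncertain.

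The 10 longest runs held 7 to 10 genes each, 74 in all. Under the other scalings and voom, 72 to 73 of the 74 kept their call and direction. The longest runs of genes higher in root held 7 genes, and 1 of them lay on chromosome 3. In it, 4 genes in a row had means of 49.2, 22.2, 21.5 and 19.7 FPKM in root and 0 in each leaf, stem and flower library. The first of these 4 was at 60.8, 45.3 and 41.4 FPKM in Root 1, 2 and 3, higher in root by 5.63 ± 0.14 in log2 (SE) at a limma adjusted p of 3.81e-12. The last gene of the run was the most abundant, at 258, 181 and 176 FPKM in root, but Leaf 1 alone reached 154 FPKM, with 15.5 and 12.5 in Leaf 2 and 3.

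On chromosome 17, 7 neighbours were lower in root, and 6 of them had root means of at most 0.0408 FPKM. Their leaf means ran from 64.9 to 644 FPKM. The highest was measured at 604, 432 and 898 FPKM in Leaf 1, 2 and 3, with a value above 0 in Root 2 alone (0.123), so root minus leaf was -9.21 ± 0.60 in log2 (SE) at a limma adjusted p of 3.18e-08. These 6 genes had means of 32.1 to 708 FPKM in stem, 27.3 to 489.8 in flower and 20.3 to 51.5 in axil.

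A run of 8 genes lower in root on chromosome 13 had another pattern in the shoot. All 8 had root means of at most 0.0417 FPKM and leaf means of 2.75 to 229 FPKM. All 8 had a higher mean in axil, from 7.74 to 1463 FPKM, and in stem, from 3.87 to 894, than in leaf. The last gene of the run was measured at 159.5, 239 and 289 FPKM in Leaf 1, 2 and 3, so root minus leaf was -7.75 ± 0.42 in log2 (SE) at a limma adjusted p of 4.94e-09. The longest run of all, 10 genes lower in root on chromosome 17, included 8 genes with reads in root. Its root means reached 82.9 FPKM and its leaf means 499, and the median log2 difference was -2.48.

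Chromosome 6 held both a run of 7 genes higher in root and a run of 7 genes lower in root. The first had root means of 4.94 to 14.2 FPKM and leaf means up to 4.67. The second had root means up to 1.1 FPKM and leaf means of 1.59 to 36.8, and its first 3 genes stood at 11.6, 13.7 and 13.3 FPKM in leaf and 0 in root. Those 3 were also low in stem, flower and axil, at no more than 0.823 FPKM.

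**Figure D5:**
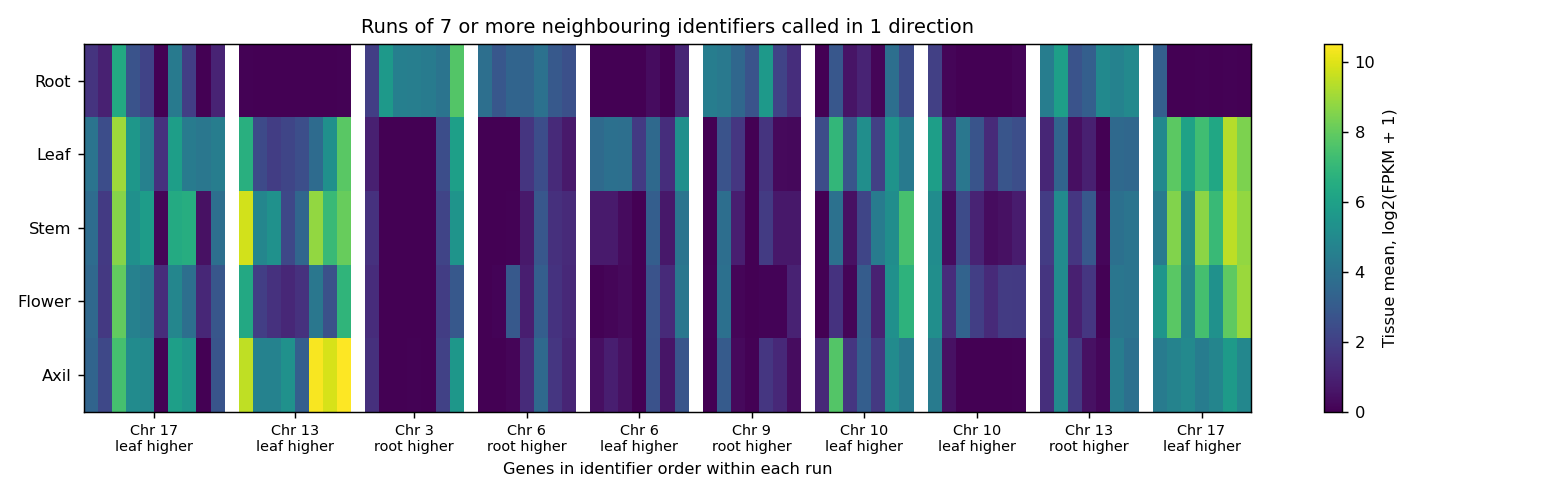
Mean level by tissue, as log2(FPKM + 1) in colour, of the 74 genes in the 10 runs of 7 or more neighbouring identifiers, with genes in identifier order and runs labelled by chromosome and by the tissue with the higher level. Runs higher in leaf are mostly dark (low) in root and mostly lighter in 1 or more of stem, flower and axil, whereas the run on chromosome 3 has 4 genes that are dark in every tissue but root.

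Identifiers outside the annotated chromosomal genes took a small part. Of 1383 tested identifiers that carry a running number without a chromosome or annotation prefix, 183 (13.2%, against 16.0% of all genes) were higher and 167 (12.1%, against 14.4%) lower in root, and the order turned after median-of-ratios scaling (164 and 191), quantile normalization (173 and 180) and voom (211 and 285). ENSRNA identifiers, the noncoding RNA class of the table, were lower in root in 46 of 234 tested (19.7%, against 14.4% of all genes) and higher in 19 (8.12%). Their FPKM summed to 923, 656 and 989.7 in Root 1, 2 and 3 and to 1326, 3592 and 778 in Leaf 1, 2 and 3, so the ranges overlapped. Without Leaf 2, 39 (16.7%, against 14% of all genes) were lower and 15 (6.41%, against 16.4%) higher. Of 72 identifiers not placed on a chromosome, 25 (34.7%, against 14.4% of all genes) were lower in root and 7 (9.72%, against 16.0%) higher. Without Leaf 2 the numbers were 14 (19.4%, against 14% of all genes) and 6 (8.33%, against 16.4%).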

How the data were processed

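The authors deposited FPKM for each library. The submitters' processing notes name HTSeq 0.6.1; aligner, build and annotation: not given in the sources used here. Adaptors carried molecular identifiers after oligo(dT) capture, per the labels' protocols, and their use in counting is not stated. A further 15 unnamed columns with values were not used, and the authors' 5 columns of tissue means were not needed. Whole reads were solved from the steps between FPKM values within 1e-06 reads plus 5e-09 of the number of reads. Of the 590496 values above 0, 100% passed as whole, and implied lengths were whole within 0.05 nt for 100% of 34599 genes. The search looked for whole reads, 491 rows were then raised by a common factor to whole lengths, and an unsolved row would pass. Neither share is therefore an independent check, and the 9.98% of lengths whole by chance holds before that step.

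Genes with at least 1 FPKM in 3 or more of 15 libraries were tested. The model on log2(FPKM + 1) had 1 mean per tissue over all 15 libraries and no block (limma 3.58.1, trended eBayes; R 4.3.3). Adjustment was by Benjamini-Hochberg over all genes tested. Voom used trimmed-mean scaling factors. Tables were handled with pandas 2.3.3 and numpy 2.4.6 (Python 3.11.15), exact permutations with SciPy 1.17.1, plots with matplotlib 3.10.9. The fit and the recovery of reads were tested on simulated data. Few genes were changed in these data, each by clearly more than the threshold and in root alone. The simulation therefore does not bear on calls near the threshold or on the choice of scaling.

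The comparison and its lists were chosen with earlier results of these data known. Named genes were, per direction, the largest difference and the highest mean among called genes with at least 5 FPKM and no overlap between libraries, plus NAC83. Marker lists by gene name could not be applied because 0 identifiers matched the reference gene table. Alternatives covered the pseudocount, filter, scaling, variance model, libraries, replicate block and threshold.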

Additional observations from a re-analysis of the deposited data

How the results depend on the processing

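Of 76 recomputed counts of genes higher or lower in root and of genes in the stricter set, 71 stayed within 1.5 times. With a pseudocount of 5, 2859 genes were higher and 2836 lower in root. With adjusted p alone, 10556 were higher and 7143 lower, while requiring 2 in log2 gave 2358 and 2467. These settings move the counts by construction. Leaving out 1 library gave 4482 to 5681 genes higher and 4544 to 5141 lower in root, the filter kept or recomputed. The 551 and 785 genes became 532 to 658 and 644 to 858. A replicate block gave 5511 and 4928. The labels do not tie equal replicate numbers to a shared plant or day. Over 30 pairs of libraries with equal numbers, deviations from tissue means had a median correlation of -0.0334, and 2 of 15 libraries were closest to their own number.

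Runs of neighbours numbered 76 and 49. They were 14 and 8 with a pseudocount of 5, 16 and 11 when 2 in log2 was required, 309 and 94 with adjusted p alone, and 126 higher in root with libraries scaled to the same sum. The percent called on a chromosome, 28.6 to 33.2, became 15.5 to 17.9, 12.5 to 15.6 and 47.0 to 54.6 under the first 3 of these. Identifiers not placed on a chromosome that were lower in root fell from 25 to 14 without Leaf 2. Of the named genes, HannXRQ_Chr02g0052221 lost its call in 16 of 27 recomputations, and the other 4 kept theirs in all 27. Class counts without Leaf 2 or after median-of-ratios scaling, and the counts on chromosomal identifiers alone, were chosen after the data were seen. Depth sets a floor: 3 reads on a gene of 1000 nt stand for 0.205 to 0.248 FPKM.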
